A study of Oryza sativa with 12 samples.

Results

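The genes here have names used for rice proteins of iron and zinc uptake, transport and regulation, or for enzymes making chelators of these metals. They were chosen by name: every nuclear gene with a probe set of its own whose symbol or synonym, without a leading Os, was IRT, ZIP, NAS, NAAT, YSL, NRAMP, FRO, TOM or IRO followed by a number. The rule matched 44 genes, and 39 of them had a probe set, out of 17903 nuclear genes with one. ZIP9, ZIP10, YSL2, YSL3 and YSL17 had none, and no FRO gene matched. The 39 comprised 10 IRT and ZIP genes, 3 NAS genes, 1 NAAT gene, 15 YSL genes, 6 NRAMP genes, 3 TOM genes and 1 IRO gene. For the 3 TOM genes the name does not settle the function. Where a gene had several probe sets, the brightest was taken. 35 members had only 1.

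Rice obtains iron by a pair of routes. Like other plants it imports ferrous iron through IRT transporters of the ZIP family, and like other grasses it secretes phytosiderophores, made from nicotianamine, that bind ferric iron in the soil and are taken up again as the complex by YSL transporters. Nicotianamine itself carries iron, zinc and copper inside the plant, and the stem base, where crown roots and leaves meet, is a place where rice redistributes metals between organs.

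Stem bases came from seedlings of Oryza sativa cv. Taichung 65 aged 8 days, either crl1 (crown rootless 1), mutated in a gene for an LBD transcription factor needed for crown roots, or wild type (WT). The labels give no allele for crl1. All seedlings grew in half-strength Murashige and Skoog medium and were sampled untreated at 0 h, or 2 h or 4 h after the auxin indole-3-acetic acid was added to 1e-06 M. Each of the 6 combinations of genotype and time had 2 arrays, for 12 in all, each from RNA of 20 pooled stem bases. No untreated arrays at 2 h or 4 h were analysed here, so the effects of auxin and of elapsed time cannot be told apart. The names CRL1 and ARL1 matched 0 genes, so the mutated gene was not analysed here.

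The 12 Affymetrix arrays carried 57194 rice probe sets, and the deposited MAS5 signals had a median of 9.39 to 12.7 per array. Between 42.8% and 57.0% of rice probe sets were above background, a level set per array so that 95% of its 64 reporter controls lay at or under it (5.83 to 18.5). The second WT array at 2 h stood apart: its mean correlation with the others was 0.901, against 0.923 to 0.932, and its 18S rRNA signal was 556, against 3399 to 5290. One GAPDH 3′ to 5′ signal ratio was 35.6 on it, against 3.08 to 17.3 on the others, while a second such ratio, 23.0, lay within the 1.43 to 32.3 of the others. Where leaving this array out moved a fitted difference or a count given here by over 1.5 times, the value without it is given too. All 6 meristem markers and 3 of 4 green leaf markers were above background on every array, and RBCS1 was at or below it on every array. Of 10 root markers, 5 were above background on every array.

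34 of the 39 genes passed the filter on low signals and were tested. YSL1, YSL4, YSL8, YSL10 and YSL11 did not pass, with signals of 0.117 to 12.0. 30 of the 34 were above background on all 12 arrays. The exceptions were IRT1 (8 arrays), IRT2 (9), ZIP8 (10) and YSL18 (6). The filter asked for a signal above the array's median of rice probe sets on at least 2 arrays. IRT1 met it through WT alone, with 0 of 6 crl1 arrays and 6 of 6 WT arrays above their median, and YSL18 did so on 1 crl1 and 3 WT arrays.

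Averaged over the 3 times, 1 of the 34 genes passed between crl1 and WT stem bases: IRT1, lower in crl1 (limma, adjusted p under 0.05). This call did not hold when signals under background were set to background. That is 2.94% of the genes tested, against 1.38% of all 32524 probe sets tested (0.925% lower in crl1). The other 33 did not pass. Among all 34, 22 had a difference above 0 and 12 below 0, with a median log2 difference, crl1 minus WT, of 0.11, against 0.00 over all genes. 9 genes (26.5%) had an unadjusted p under 0.05, against 16.6% of all probe sets. At the single times no member passed, against 0.101% of all probe sets at 0 h, 0.0738% at 2 h and 0.0799% at 4 h. An unadjusted p under 0.05 was seen in 6 members at 0 h (17.6%, against 9.05% of all probe sets), 6 at 2 h (17.6%, against 11%) and 1 at 4 h (2.94%, against 7.36%). Without the second WT array at 2 h, the count at 2 h was 3 (8.82%, against 6.41%). Without the first, which leaves the deviating array alone in its group, far more of the whole table passed. In that fit 7 members passed in the averaged comparison (20.6%, against 11.3% of all probe sets) and 6 at 2 h (17.6%, against 14.6%).

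**Figure D1:**
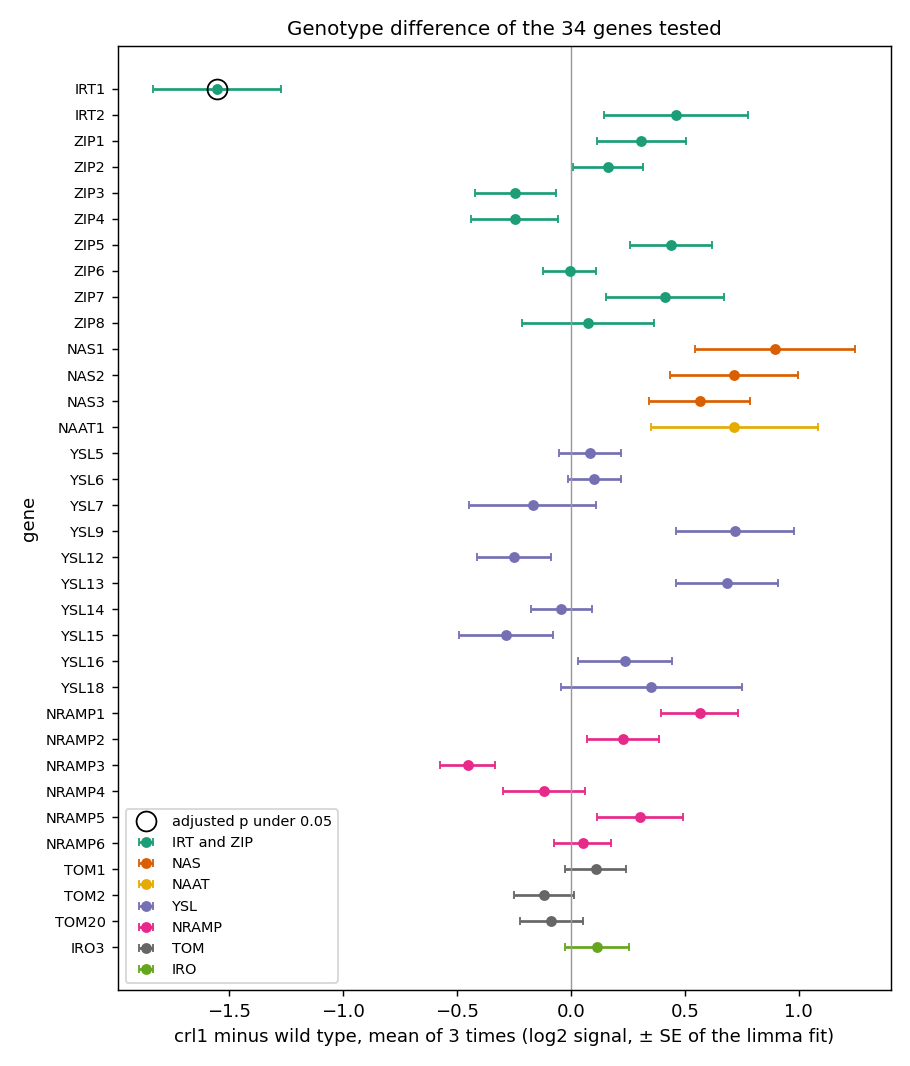
Difference between crl1 and WT stem bases, averaged over 0, 2 and 4 h, for the 34 genes tested, on the log2 scale (points, with bars of 1 standard error). The ring marks the 1 gene past the threshold, IRT1, at -1.55 with signals as deposited (its crl1 arrays at 0 h and 2 h were at or below background), and the other 33 lie between -0.45 and 0.90.

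IRT1 (LOC4333669), a plasma membrane importer of ferrous iron in roots, was the gene that passed. Its signals in crl1 and WT were 8.9 and 7.4 against 18.9 and 48.3 at 0 h, 6.3 and 6.1 against 20.03 and 28.3 at 2 h, and 8.9 and 11.2 against 16.1 and 19.0 at 4 h. Every crl1 array was thus below every WT array, which no other member showed and which 2.42% of all probe sets showed in either direction. IRT1 passed the filter through its WT arrays alone, and 4 of its crl1 arrays were at or below background. The separation is therefore a description and no further support. With all signals taken as deposited, the difference averaged over times was -1.55 ± 0.28 (log2, SE, limma, adjusted p = 0.0263). Both crl1 arrays were at or below background at 0 h and at 2 h, so that value rests on signals not measured above background. With signals under background set to background, an alternative chosen after seeing the data, the averaged difference was -0.99 and did not pass (adjusted p = 0.0752). The folds at 0 h and 2 h are likewise bounds. On the mean of the WT arrays, IRT1 was at least 2.63-fold lower at 0 h and at least 1.71-fold lower at 2 h. The limma tests used the deposited signals, not these bounds, and neither time passed (adjusted p = 0.292 at 0 h and 0.282 at 2 h). At 0 h the WT arrays lay far apart, at 18.9 and 48.3, and the bound would be lower on the first of them alone. Without the second of them the difference as deposited was -1.23 (log2), against -1.90 with both. A bound sets the mean of the WT arrays against the higher of background and the crl1 signal on each crl1 array.

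With the signals as deposited, whether IRT1 passed also depended on which arrays entered the fit, and it passed with no filter (adjusted p = 0.0417). Of the 12 fits that left out 1 array, 3 kept it: those without the first WT array at 0 h (adjusted p = 0.0196), the first at 2 h (0.0121) or the second at 2 h (0.0468, with a difference of -1.47). The other 9 lost it, and over all 12 the differences were -1.78 to -1.33 with adjusted p-values of up to 0.0958. With 16 added to every signal before the logarithm the difference was -0.73 (adjusted p = 0.0355).

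Of the 10 root markers, 2 were also lower in crl1 over all times: the auxin exporter PIN2 by a log2 difference of -1.79 (adjusted p = 0.00349) and RAA1 by -1.28 (adjusted p = 0.00732). PIN2 signals were 4.53 to 12.9 on the crl1 arrays, at or below background on 4 of the 6, and 22.8 to 39.8 on the WT arrays. The other 8 root markers did not pass, 5 of the 10 were above 0 and 5 below, and the summed root marker signal was 1607 to 3322 in crl1 and 1932 to 2755 in WT. The green leaf marker RBCS was lower in crl1 too (-0.66, limma, adjusted p = 0.0297), 1 of 3 such markers tested. The summed signal of the green leaf list was 8070 to 11780 in crl1 and 9768 to 17920 in WT. The 17920 was on the second WT array at 2 h, and the other WT arrays reached 12290 at most. The part of these markers in the IRT1 result was not tested. In bulk stem bases, fewer cells of a type and less RNA per cell cannot be told apart.

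IRT2 (LOC4333667), a second ferrous iron importer, lies near IRT1 with 2 genes between them. Its signals in crl1 and WT were 17.0 and 19.4 against 6.3 and 9.2 at 0 h, 15.4 and 24.0 against 12.8 and 18.1 at 2 h, and 18.1 and 6.0 against 11.2 and 13.1 at 4 h. The arrays of the genotypes were apart at 0 h, with crl1 higher, and overlapped later, and the averaged difference of 0.46 did not pass (adjusted p = 0.492).

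**Figure D2:**
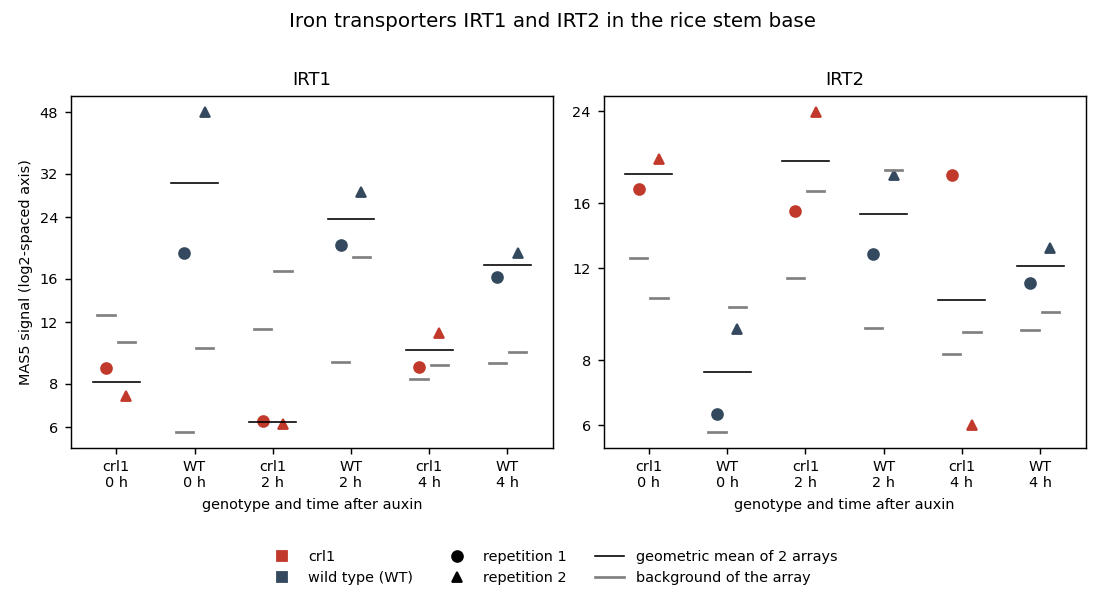
MAS5 signals of IRT1 and IRT2 on a log2-spaced axis, by genotype and time. Dots are arrays (circle, repetition 1; triangle, repetition 2), black lines the geometric mean of 2 arrays, and grey ticks the array's background. All 6 crl1 points of IRT1 lie below all 6 WT points, and the IRT2 points of crl1 lie above those of WT at 0 h only.

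By Pearson correlation over the 12 arrays, the genes most like IRT1 were LOC4326528 (r = 0.943), LOC4325627 (0.923), LOC4341368 (0.919), LOX3 (0.919) and LOC4352073 (0.916). These are descriptions over arrays that share groups, 4 of them with IRT1 at or below background, with no test.

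The 8 ZIP genes, zinc and other metal transporters of the same family, did not pass in any comparison. ZIP3, a zinc transporter of the nodes, had signals of 254 and 174 in crl1 against 271 and 218 in WT at 0 h, 142 and 155 against 256 and 136 at 2 h, and 282 and 217 against 268 and 296 at 4 h. ZIP6 had 460 and 337 against 404 and 335 at 0 h, 426 and 402 against 371 and 413 at 2 h, and 354 and 332 against 405 and 380 at 4 h. The genotypes overlapped for both at 0 and 2 h, and crl1 was lower than WT without overlap in ZIP6 at 4 h. Averaged over times, the differences were -0.24 for ZIP3 (-0.40 without the second WT array at 2 h and -0.09 without the first) and 0.00 for ZIP6 (0.02 without the second). ZIP5, which contributes to zinc uptake in rice roots, had the highest difference of the 8, 0.44 ± 0.18, and did not pass (adjusted p = 0.259). It falls outside the rule for named genes and was chosen after its values were seen.

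NAS enzymes join S-adenosylmethionine into nicotianamine. NAS1 (LOC4332608) had signals of 1293 and 1113 in crl1 against 340.5 and 611 in WT at 0 h, 621 and 574 against 388 and 177 at 2 h, and 290.0 and 190.3 against 100.5 and 472 at 4 h. NAS2 (LOC4332607) had 1320 and 982 against 471 and 783 at 0 h, 797 and 764 against 528 and 310.0 at 2 h, and 439 and 307 against 165 and 544.5 at 4 h. For both, crl1 was higher without overlap at 0 h and 2 h and overlapped WT at 4 h. NAS1 and NAS2 are adjacent genes of similar sequence, so signal from one may reach the other's probe set, and how far it does was not tested. NAS3 (LOC4344361) had 4138 and 2838 in crl1 against 2332 and 2668 in WT at 0 h, 5168 and 3016 against 3110 and 1478 at 2 h, and 3397 and 2806 against 1891 and 3058 at 4 h.

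All 3 NAS genes had a difference above 0 averaged over times, and none passed. The differences were 0.90 ± 0.35 for NAS1 (adjusted p = 0.236), 0.72 ± 0.28 for NAS2 (0.238) and 0.57 ± 0.22 for NAS3 (0.235), from limma with SE. At 2 h, the difference of NAS1 was 1.19 and that of NAS3 0.88, and without the second WT array they were 0.62 and 0.34.

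**Figure D3:**
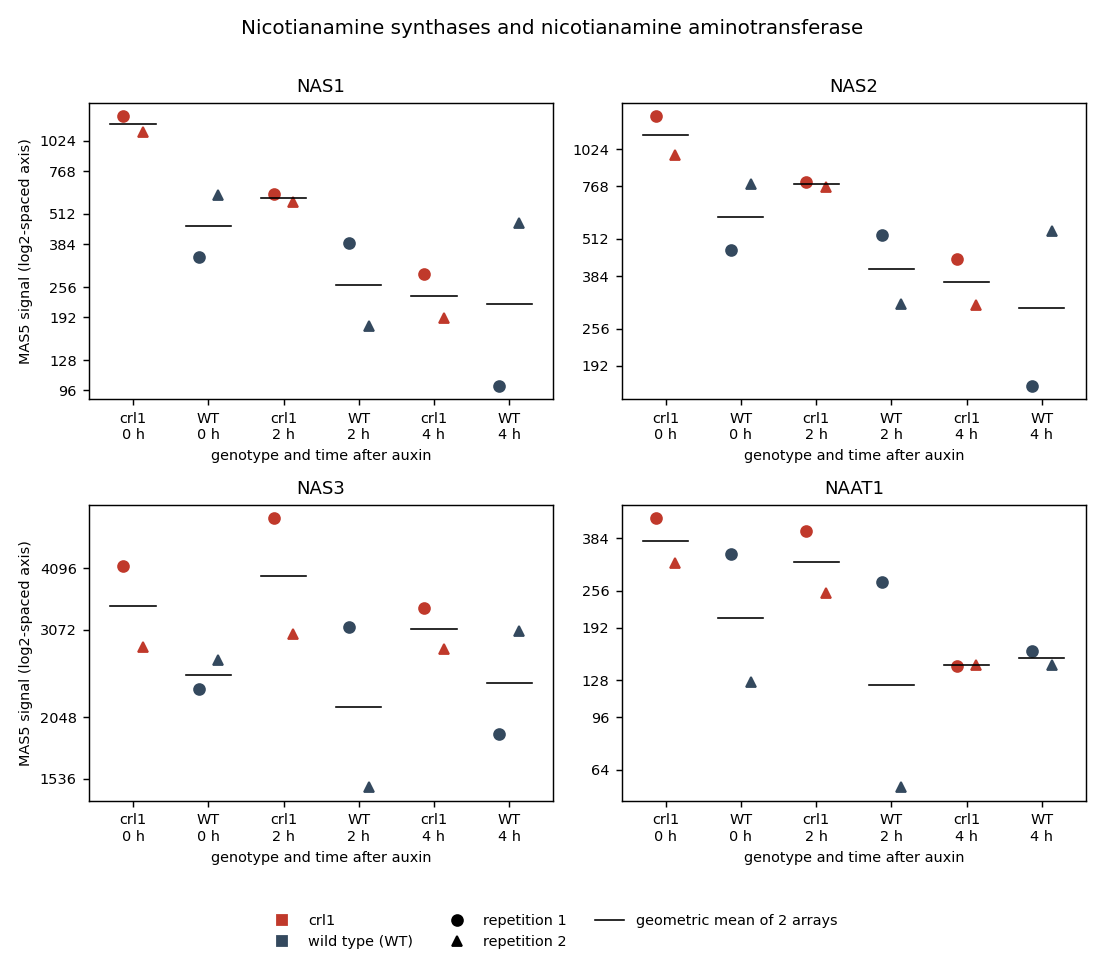
MAS5 signals of NAS1, NAS2, NAS3 and NAAT1 on a log2-spaced axis, by genotype and time, with arrays as dots (circle, repetition 1; triangle, repetition 2) and the geometric mean of 2 arrays as a black line. The NAS1 and NAS2 points of crl1 lie above those of WT at 0 and 2 h and overlap them at 4 h.

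NAAT1 (LOC9267778) converts nicotianamine toward the phytosiderophore deoxymugineic acid. Its signals in crl1 and WT were 449 and 316 against 339 and 125.9 at 0 h, 407 and 251 against 273 and 55.9 at 2 h, and 143.0 and 143.8 against 161 and 144.0 at 4 h. The genotypes overlapped at 0 h and 2 h. The difference averaged over times was 0.72 (adjusted p = 0.355), and 0.34 without the second WT array at 2 h. At 2 h it was 1.37 with that array and 0.23 without it.

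YSL proteins carry metals bound to nicotianamine or phytosiderophores. None of the 10 YSL genes tested passed. YSL9 (LOC4336545) had 286 and 201 in crl1 against 155 and 149 in WT at 0 h, 206 and 166 against 154 and 49.1 at 2 h, and 235 and 144 against 124 and 152.5 at 4 h. The genotypes were apart at 0 h and 2 h, with crl1 higher, and overlapped at 4 h. Its averaged difference of 0.72 ± 0.26 did not pass (adjusted p = 0.205), and was 0.45 without the second WT array at 2 h. YSL13, chosen after its values were seen, had a difference of 0.68 ± 0.22 (adjusted p = 0.171), and 0.47 without that array.

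YSL6 (LOC4335676), a transporter linked to manganese handling in rice, had 748 and 813 in crl1 against 863 and 715 in WT at 0 h, 764 and 702 against 695 and 491 at 2 h, and 719 and 714 against 728 and 713 at 4 h. YSL12 (LOC4336442) had 252 and 421 against 377 and 326 at 0 h, 245 and 334.5 against 334.4 and 416 at 2 h, and 265 and 336 against 320.4 and 398 at 4 h. Neither passed, with averaged differences of 0.10 for YSL6 (0.02 without the second WT array at 2 h) and -0.25 for YSL12. Under the other processing settings the YSL12 difference was -0.69 to -0.23 and did not pass. YSL15, the rice root importer of iron bound to phytosiderophore, had 83.6 and 48.3 in crl1 against 80.3 and 82.7 in WT at 0 h, 112.8 and 61.02 against 74.1 and 79.9 at 2 h, and 53.7 and 40.3 against 57.9 and 86.8 at 4 h. The genotypes were apart at 4 h only, with crl1 lower, and the averaged difference of -0.28 ± 0.21 did not pass (adjusted p = 0.516). It too was chosen after its values were seen.

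NRAMP transporters move divalent metals. NRAMP3 (LOC9267339), which distributes manganese in rice nodes, had signals of 396 and 393 in crl1 against 601 and 542.5 in WT at 0 h, 416 and 331 against 392.2 and 413 at 2 h, and 214 and 224 against 302 and 424 at 4 h. The genotypes were apart at 0 h and 4 h, with crl1 lower, and overlapped at 2 h. The averaged difference of -0.45 ± 0.12 did not pass (adjusted p = 0.105). NRAMP1 (LOC4342862), linked to iron and cadmium transport in rice, had 88.6 and 67.7 against 46.5 and 45.9 at 0 h, 57.4 and 69.8 against 40.2 and 31.9 at 2 h, and 47.5 and 35.7 against 46.6 and 30.5 at 4 h. Here crl1 was the higher at 0 h and 2 h, with an averaged difference of 0.57 ± 0.17 (adjusted p = 0.138). NRAMP2 (LOC4332012) had 964 and 840 against 1007 and 795 at 0 h, 1178 and 975 against 904 and 494.5 at 2 h, and 804 and 790 against 869 and 731 at 4 h. Its difference at 2 h was 0.68, and 0.25 without the second WT array. NRAMP4, NRAMP5 and NRAMP6 had averaged differences of -0.12, 0.30 and 0.05 (NRAMP6 0.10 without that array), and none passed. Other tested probe sets of NRAMP4 gave 0.09 and -0.44, and neither passed.

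**Figure D4:**
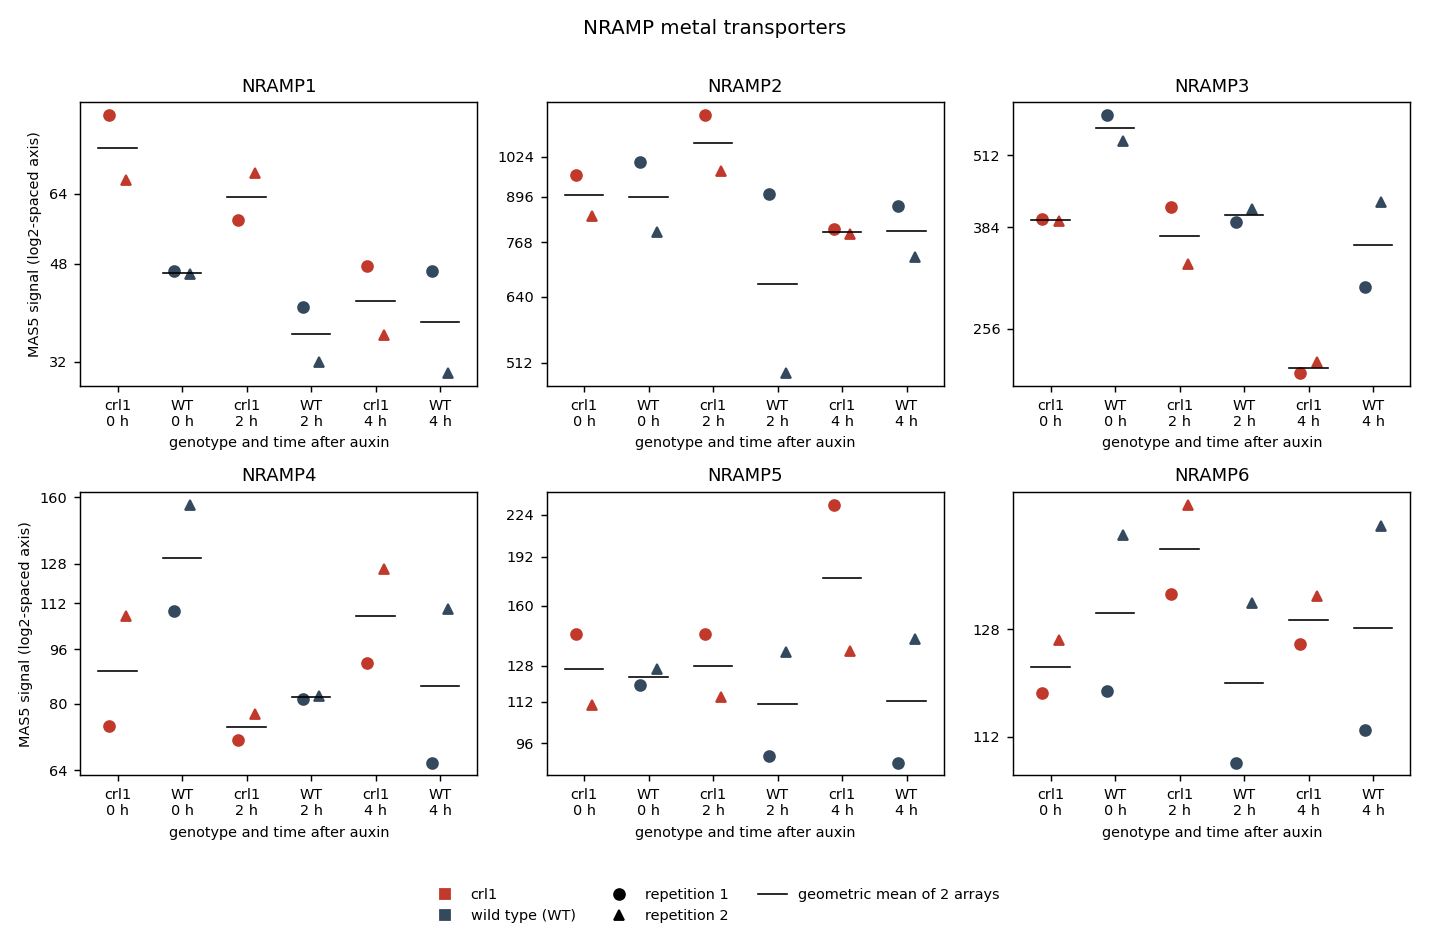
MAS5 signals of the 6 NRAMP genes on log2-spaced axes, by genotype and time, with arrays as dots (circle, repetition 1; triangle, repetition 2) and the geometric mean of 2 arrays as a black line. The NRAMP3 points of crl1 lie below those of WT at 0 and 4 h, and the NRAMP1 points of crl1 lie above those of WT at 0 and 2 h. None of the 6 genes passed between genotypes at any single time.

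IRO3 (LOC4332972) is, in rice, a basic helix-loop-helix repressor of iron deficiency genes, and the gene table also lists this gene as IRO2. Its signals in crl1 and WT were 102.0 and 80.8 against 81.1 and 68.5 at 0 h, 86.7 and 107.6 against 87.5 and 88.9 at 2 h, and 52.0 and 68.4 against 67.6 and 58.0 at 4 h. The genotypes overlapped at every time, and the averaged difference was 0.11 (adjusted p = 0.718).

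The 3 TOM genes need care. TOM20 shares its name with a mitochondrial import receptor, and TOM1 and TOM2 are names also used for proteins other than the phytosiderophore exporters. The members TOM1 and TOM2 lie on chromosomes 2 and 10. The names alone do not settle what these 3 members do, and none is taken here as an exporter. TOM1 had signals of 1385 and 1535 in crl1 against 1267 and 1355 in WT at 0 h, 1454 and 1466 against 1226 and 1993 at 2 h, and 1431 and 1429 against 1053 and 1334 at 4 h. TOM2 had 148 and 164.5 against 180.2 and 151 at 0 h, 213 and 182 against 214 and 154.5 at 2 h, and 118 and 133 against 183 and 146 at 4 h. TOM20 had 1208 and 1389 against 1226 and 1438 at 0 h, 1105 and 1368 against 1108 and 1768 at 2 h, and 1351 and 1582 against 1421 and 1572 at 4 h. The genotypes overlapped at every time in TOM20. Averaged differences were 0.11 for TOM1, -0.12 for TOM2 and -0.08 for TOM20, and none passed. Without the second WT array at 2 h they were 0.23, -0.20 and 0.03, so TOM20 changed sign. Leaving these 3 genes out changed no count of calls. With all arrays, another probe set of TOM2 gave -0.36 and another of TOM20 gave -0.08, and neither passed.

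At 0 h the 2 crl1 arrays did not overlap the 2 WT arrays in 14 of 34 members (41.2%), against 42.6% of all probe sets, with crl1 higher in 10 and lower in 4. At 2 h there were 11 (32.4%, against 37.4%), with 9 higher and 2 lower, and at 4 h 10 (29.4%, against 44.0%), with 3 higher and 7 lower. These shares are near or below the background, so they are no result about the members.

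From 0 h to 4 h no member passed in either genotype or in their average, against 0.0154% of all probe sets in crl1, 0.0184% in WT and 0.455% in the average. No member passed at 2 h either, against 0.04% in crl1, 0.00307% in WT and 0.126% in the average. An unadjusted p under 0.05 was seen at 4 h in 5 members in crl1 (14.7%, against 6.16% of all probe sets). It was seen in 1 in WT (2.94%, against 6.89%) and 5 in the average (14.7%, against 8.83%). At 2 h it was seen in 1 member in crl1 (2.94%, against 5.1%). It was seen there in 1 in WT (2.94%, against 7.8%) and 1 in the average (2.94%, against 6.55%). Without the second WT array at 2 h it was seen in 3 members in WT (8.82%, against 5.51%) and 2 in the average (5.88%, against 5.91%). Without the first, 5 members passed at 2 h in WT (14.7%, against 10.4% of all probe sets) and 1 in the average (2.94%, against 4.24%). In the average at 4 h, 13 members were above 0 (38.2%, against 54.5% of all genes) and 21 below. The median was -0.08, against 0.03 over all genes.

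NRAMP3 came closest, with a log2 difference between 4 h and 0 h of -0.76 ± 0.15 (limma, adjusted p = 0.0671). It was -0.85 in crl1 (adjusted p = 0.348) and -0.67 in WT (0.516). It passed with the repetition as a block (adjusted p = 0.0467) and without either WT array at 2 h (0.0399 without the first and 0.0398 without the second). NAS1 had -1.71 ± 0.43 (adjusted p = 0.181) and NAS2 -1.33 ± 0.34 (0.2001), and each passed only without the second WT array at 4 h, at -2.27 (adjusted p = 0.022) for NAS1 and -1.76 (0.0304) for NAS2. NAS3 had -0.10 and NAAT1 -0.92 (0.605). IRO3 was the only member whose 4 arrays at 4 h all lay below its 4 arrays at 0 h, as 6.72% of all probe sets did in either direction, with a difference of -0.43 ± 0.17 that did not pass (adjusted p = 0.490).

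**Figure D5:**
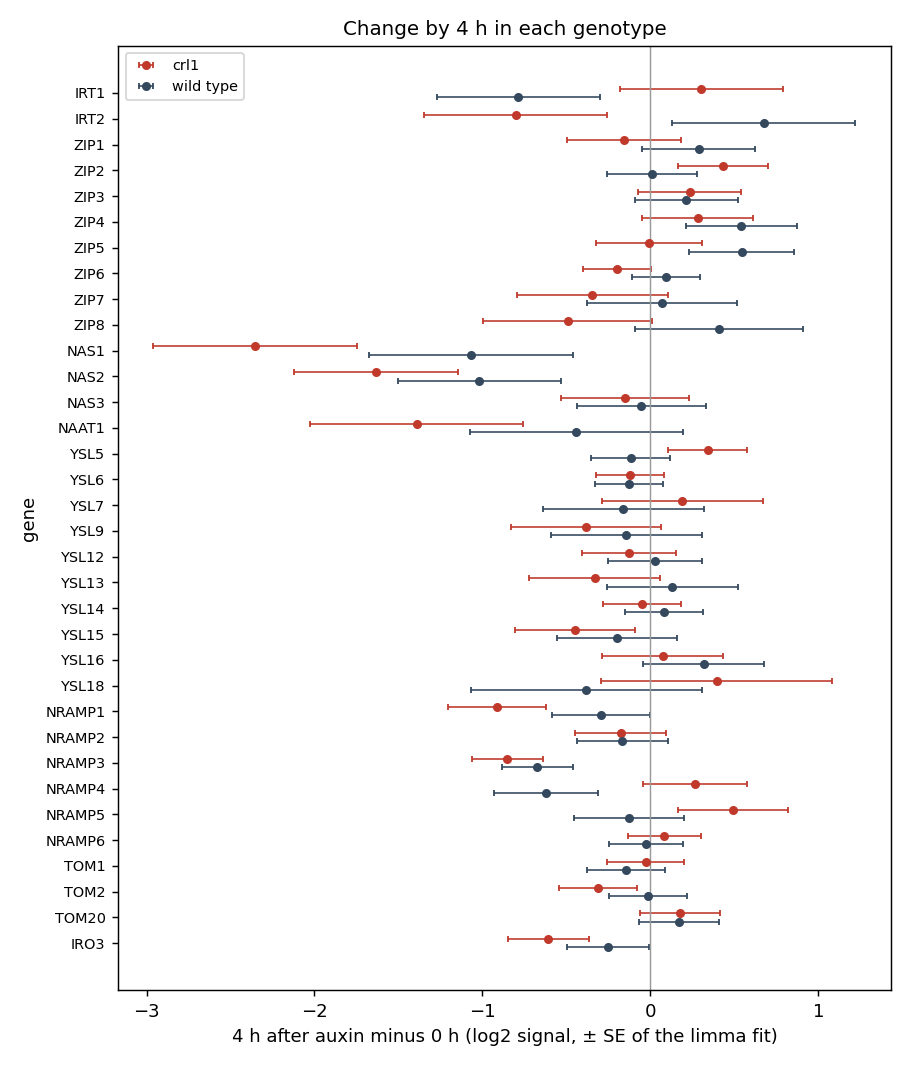
Difference between 4 h and 0 h after auxin, on the log2 scale, in crl1 and in WT for the members tested (points, with bars of 1 standard error). No member passed the threshold in either genotype. IRT1 and YSL18 in crl1 start from 0 h arrays at or below background. NAS1 lies at -2.35 in crl1 and -1.07 in WT, and NRAMP3 at -0.85 and -0.67.

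Whether the genotypes differed in their change with time was tested directly. No member passed at 2 h or 4 h, and 0% of all probe sets passed. No member had an unadjusted p under 0.05, against 5.63% of all probe sets at 2 h and 3.35% at 4 h. Without the second WT array at 2 h, 1 member did at 2 h (2.94%, against 6.61%). The lowest adjusted p among members was 0.868 at 2 h and 0.990 at 4 h. For NAS1 the change to 4 h differed by -1.29 ± 0.86 between crl1 and WT. For IRT1 no value is given, since both crl1 arrays at 0 h were at or below background.

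Other genes of the pathway, in lists drawn up by function, gave no call where they could be found. Many listed names matched no gene with a probe set. Of the listed regulators of iron supply only IDEF1 was found, and of the storage genes only VIT1 and VIT2. In the averaged genotype comparison none of 4 methionine cycle genes (SAMS2, ARD1, ARD2 and MTK1) passed. DMAS1, the gene of phytosiderophore synthesis on the same list, was not found with a probe set. IDEF1, a regulator of the iron deficiency response, did not pass. Nor did 2 vacuolar iron transporters, 11 other metal transporters or 7 metallothioneins. ARD1, of the methionine cycle, had a difference of 1.23 ± 0.36 (adjusted p = 0.132). VIT2, which loads iron into the vacuole, had -0.65 ± 0.29 (adjusted p = 0.296), and 1.02 ± 0.36 between 4 h and 0 h (0.405). None of these lists had a call in the time comparisons averaged over genotypes. Of the marker lists, none of 4 phloem and xylem or 6 meristem genes passed between genotypes, and the meristem gene WOX11 rose at 2 h in the average by 2.09 (adjusted p = 0.00124).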

How the data were processed

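RNA from stem bases was hybridised to Affymetrix rice arrays. Per the submitters' processing notes, the authors used MAS5 in Affymetrix Expression Console, and the deposited values are MAS5 signal intensity on a linear scale, with a trimmed mean of 99.99 on every array. Versions are not given in the sources used here. The deposited intensities were taken to log2 with no further scaling. Gene names came from the platform annotation and a RefSeq gene table: 22436 probe sets had 1 gene, 95 several and 34663 rice probe sets none. Probe sets above the median of rice probe sets on at least 2 arrays were kept (32524, in 16438 genes). limma 3.58.1 in R 4.3.3 fitted 6 group means with an intensity trend (6 residual degrees of freedom), and 12 comparisons were each adjusted by Benjamini-Hochberg over all kept probe sets (two-sided, threshold 0.05). The method was tested on simulated data.

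Named genes were the members past the threshold and, for each class, the brightest 2 and the one with the largest genotype difference. The members and lists were chosen with earlier results of these data known. The repetition number comes from the labels, which describe 2 independent repetitions. Over all probe sets, deviations of arrays with the same number correlated above 0.1 in 11 of 15 pairs of groups (0.0078 to 0.249). Over bright probe sets alone, the correlations ran from -0.142 to 0.613, so the pairing was not negligible there. The main fit did not include the repetition. With the repetition as a block, NRAMP3 passed between 4 h and 0 h averaged over genotypes, which it did not in the main fit. Alternatives were other normalizations, filters, a pseudocount of 16, array weights, the repetition as a block, signals floored at background (added after seeing the data), the mean of a gene's probe sets and each array left out. The precision is limited by the 2 arrays in each group. Promoters and other sequences were not analysed here.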

Additional observations from a re-analysis of the deposited data

How the results depend on the processing

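Counts of members called kept to within 1.5 times the count in the text under all alternatives except those given here. With a filter at the 75th percentile, IRT1 was not tested and 0 members passed in the averaged genotype comparison, in place of 1. The count was also 0 with signals under background set to background, an alternative chosen after seeing the data, where IRT1 had -0.99 (adjusted p = 0.0752): the floor shortens its difference because crl1 signals lay under it. For 4 h against 0 h averaged over genotypes, 1 member (NRAMP3) passed with the filter at the 75th percentile (adjusted p = 0.0427), in place of 0. It also passed with array weights (0.0293), and the cause was not tested. With 2 arrays per group, the weights were equal within every group, at 0.348 for both WT arrays at 2 h. That setting thus weighted whole groups and could not set the deviating array apart from its partner. With the repetition as a replicate block, the same count was 1 (NRAMP3, adjusted p = 0.0467) and IRT1 passed at 0.0144; the block changed no other call. Leaving out each array in turn gave 0 to 7 members for the averaged genotype comparison, 0 to 6 for crl1 against WT at 2 h, 0 to 5 for 2 h against 0 h in WT, 0 to 1 and 0 to 2 for 2 h and 4 h against 0 h averaged over genotypes, and 0 to 0 elsewhere. The 7 and the 6 came without the first WT array at 2 h, which leaves the array that stands apart alone in its group. IRT1 passed in 7 of the 8 other settings where it was tested, with differences of -1.65 to -0.73. Median centring moved the median of all probe sets by up to 0.206 (log2). ZIP6, TOM1 and TOM20 differences changed sign between settings and passed in none. The members not well above background, IRT1, IRT2, ZIP8 and YSL18, are the least precisely measured.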
